A study of Mus musculus with 36 samples.

Results

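The genes described here are those of cholesterol and fatty acid synthesis, with the regulators and sterol carriers that go with them. The set was a list of 34 gene symbols, and 33 of the 18193 genes measured belonged to it. Acat2, the cytosolic thiolase of acetoacetyl-CoA formation, was not analysed here, since no probe set was listed with that symbol alone. Each gene was read from its brightest probe set, by the mean of all 36 arrays. The 33 fall into 16 enzymes of sterol synthesis, 5 regulators, 9 enzymes of fatty acid synthesis and 3 transport proteins.

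The samples were mouse CD8 T cells of OT-I origin, whose T cell receptor recognises an ovalbumin peptide. They carried a short hairpin RNA, were transferred into mice with B16, a melanoma cell line, and were purified again. Hairpins targeted Ppp2r2d, Egr2, Ptpn2, Arhgap5, Alk or Lacz, a bacterial gene that served as the control. For each of these 6 transductions 3 arrays are labelled tumor and 3 are labelled spleen, which gives 12 groups. The sources used here do not give the genotype, age or sex of the mice, the time before purification or the number of hairpin sequences per gene. Nothing says that the 3 arrays of a group came from separate animals, so every p measures the spread between arrays.

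Cells make cholesterol from acetyl-CoA by way of mevalonate, squalene and lanosterol. The transcription factors SREBP1 and SREBP2, encoded by Srebf1 and Srebf2, activate the enzyme genes. Scap carries the factors out of the endoplasmic reticulum when sterol is low, and the Insig proteins hold them back when it is high. Liver X receptors (LXR) respond to oxidised sterols and activate the exporters Abca1 and Abcg1. Activated and dividing T cells are known to raise the synthesis programme.

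Promoter windows of 300 bases, from 250 before to 50 after a start site, were taken from RefSeq for GRCm38.p6 and matched 26 of the 34 symbols. None of Scd1, Sqle, Scd2, Fads1, Fdft1, Abcg1, Fdps and Stard4 was among the matched symbols. The 5 windows below are those of Idi1, Cyp51, Msmo1 and Abca1, described in detail below, and of Hmgcs1, which held the sterol regulatory element. Hmgcs1 lies at chr13:119690101-119690400 on the plus strand and Idi1 at chr13:8885356-8885655 on the plus strand. Cyp51 lies at chr5:4104648-4104947, Msmo1 at chr8:64733529-64733828 and Abca1 at chr4:53159846-53160145, all on the minus strand. Capitals mark the sterol regulatory element TCACNCCAC and the NF-Y box CCAAT, which reads ATTGG on the opposite strand.
Hmgcs1: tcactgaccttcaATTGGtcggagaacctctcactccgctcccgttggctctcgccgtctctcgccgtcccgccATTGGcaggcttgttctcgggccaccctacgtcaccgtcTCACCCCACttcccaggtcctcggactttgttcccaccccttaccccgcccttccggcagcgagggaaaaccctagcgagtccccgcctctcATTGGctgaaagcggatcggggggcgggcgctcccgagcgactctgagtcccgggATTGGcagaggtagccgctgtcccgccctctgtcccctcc
Idi1: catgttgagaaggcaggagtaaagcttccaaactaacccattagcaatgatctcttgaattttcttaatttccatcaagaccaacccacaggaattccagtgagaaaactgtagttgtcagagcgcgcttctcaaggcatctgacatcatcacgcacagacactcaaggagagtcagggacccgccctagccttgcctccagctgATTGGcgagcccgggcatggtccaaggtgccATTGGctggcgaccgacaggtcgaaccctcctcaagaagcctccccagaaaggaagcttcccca
Cyp51: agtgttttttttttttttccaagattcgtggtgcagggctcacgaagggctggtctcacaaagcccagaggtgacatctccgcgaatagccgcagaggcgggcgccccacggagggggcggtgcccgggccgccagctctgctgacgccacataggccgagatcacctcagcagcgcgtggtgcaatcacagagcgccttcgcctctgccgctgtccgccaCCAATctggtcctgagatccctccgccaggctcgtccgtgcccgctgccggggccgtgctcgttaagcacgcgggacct
Msmo1: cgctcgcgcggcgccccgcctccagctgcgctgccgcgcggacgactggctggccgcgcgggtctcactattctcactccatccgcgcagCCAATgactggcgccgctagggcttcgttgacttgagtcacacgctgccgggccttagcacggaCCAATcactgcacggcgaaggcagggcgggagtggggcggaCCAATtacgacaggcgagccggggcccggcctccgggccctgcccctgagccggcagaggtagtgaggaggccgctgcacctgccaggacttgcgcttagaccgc
Abca1: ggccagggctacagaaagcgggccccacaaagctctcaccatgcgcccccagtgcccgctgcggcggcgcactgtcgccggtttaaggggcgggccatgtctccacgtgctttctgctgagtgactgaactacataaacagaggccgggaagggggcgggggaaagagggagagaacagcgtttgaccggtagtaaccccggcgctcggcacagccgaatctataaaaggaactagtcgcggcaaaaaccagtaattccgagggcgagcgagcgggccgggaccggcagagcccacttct

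The element TCACNCCAC, searched on both strands, was found in 1 of the 34 windows of the 26 genes (2.94%), that of Hmgcs1, and in 1.24% of all 32851 promoter windows. In Hmgcs1 it stands as TCACCCCAC and begins at position -137 from the start site. CCAAT stood in 21 of the 34 windows (61.8%), against 37.4% of all windows. The GC box GGGCGG stood in 25 of 34 (73.5%), against 35.7%, and the E-box CACGTG in 7 of 34 (20.6%), against 7.15%. No matches of different motifs shared a base in the windows of these genes. Msmo1 held 3 CCAAT boxes and Idi1 held 2, whereas Abca1 held none and carried 2 GC boxes and 1 E-box. A match is a run of letters in the window and not a shown binding site.

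Some facts of the whole series bear on every comparison between the labels. The log2 of the summed signal of 10 pigment cell markers ran from 2.87 to 4.20 in arrays labelled tumor and from 6.82 to 8.58 in arrays labelled spleen. The same measure for 12 macrophage markers ran from 4.43 to 5.88 in arrays labelled tumor and from 7.08 to 9.0 in arrays labelled spleen. Pigment and macrophage markers thus stood higher under the spleen label, which goes against the tissue names, and the arrays are therefore called by their labels throughout. For 7 B cell markers the measure was 4.84 to 6.39 labelled tumor and 4.04 to 4.91 labelled spleen. For 4 erythroid markers it was -0.46 to 6.22 labelled tumor and -0.92 to 1.13 labelled spleen. For 7 stroma and endothelium markers it was 2.64 to 3.78 labelled tumor and 3.22 to 4.88 labelled spleen. The same measure for 9 T cell markers overlapped, at 8.84 to 10.3 in arrays labelled tumor and 9.20 to 10.1 in arrays labelled spleen. Of 15 genes of dividing cells, 15 were lower in arrays labelled tumor, with a median difference of -3.21. Their part in the differences below was not tested. In bulk RNA, fewer cells of a type and less RNA per cell cannot be told apart. Of the 10 comparisons of a targeted gene with Lacz, 8 differences were negative and 1 was called, that of Ppp2r2d in arrays labelled spleen at -1.37 with an adjusted p of 0.0286. In arrays labelled tumor Ppp2r2d differed by -0.12 (adjusted p 0.902), with overlapping arrays, so a lower level of the target was not shown there. Arhgap5 differed by -0.47 in arrays labelled tumor and by 0.45 in arrays labelled spleen, neither called. Ptpn2 labelled tumor array 1 stood apart, with a Gapdh signal 2.94 higher at the 3' than at the 5' end, against 0.25 to 1.39 in the other 35 arrays. That excess was 0.86 to 1.14 in the other 17 arrays labelled tumor. It was 0.25 to 0.83 in the 15 arrays labelled spleen without Lacz, and 0.83 to 1.39 in the 3 Lacz arrays labelled spleen. The ranges of the 17 and the 15 arrays did not overlap. The part of this excess in the differences below was not tested.

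In the mean of the 6 transductions, most genes of cholesterol synthesis were lower in arrays labelled tumor than in arrays labelled spleen, and the sterol exporters Abca1 and Abcg1 were higher. Abcg1 was higher in each of the 6 transductions and Abca1 in 5, with Alk the exception. Of the 33 genes, 26 were called lower and 3 higher in the mean of the 6 differences (limma, p adjusted over all 18193 genes by Benjamini-Hochberg, under 0.05). The same comparison called 70.7% of all genes, 33.1% lower and 37.6% higher. The median difference of the 33 genes was -1.02, against 0.13 for all genes. Lower calls numbered 15 of 16 sterol enzymes, 4 of 5 regulators, 6 of 9 fatty acid enzymes and 1 of 3 transport genes. Differences are log2 values, labelled tumor minus labelled spleen, with their standard error.

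Among the early sterol enzymes Idi1 stood out, the isomerase that makes the allylic unit for prenyl chains. Its level was 1.85 at the lowest, 2.73 at the median and 3.74 at the highest array labelled tumor, against 4.94, 5.70 and 6.12 in arrays labelled spleen. The 18 arrays labelled tumor all lay below the 18 labelled spleen. The difference was -2.87 ± 0.12 with an adjusted p of 2.2e-19, and a second probe set of Idi1 gave -3.53. Cyp51, the lanosterol demethylase, read 1.64, 2.70 and 3.71 in arrays labelled tumor, against 4.29, 4.89 and 5.34 in arrays labelled spleen. The labels did not overlap, and the difference was -2.16 ± 0.13 (adjusted p 5.52e-16). Msmo1, the methylsterol oxidase that acts after Cyp51, read 0.42, 1.42 and 2.40 in arrays labelled tumor, against 2.63, 3.58 and 4.31 in arrays labelled spleen. Again no array labelled tumor reached the lowest array labelled spleen, and the difference was -2.21 ± 0.15 (adjusted p 1.88e-14). Sqle, the squalene epoxidase, read 0.60, 1.41 and 2.71 in arrays labelled tumor, against 2.5, 3.52 and 4.00 in arrays labelled spleen. Its labels overlapped at the edge, and the difference was -1.99 ± 0.14 (adjusted p 1.47e-13).

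The other sterol enzymes fell by smaller amounts. Fdps, which makes farnesyl diphosphate, differed by -1.83, Hsd17b7, a sterol ketoreductase, by -1.63, and Fdft1, the squalene synthase, by -1.52. Lss, the lanosterol synthase, differed by -1.35 and Pmvk, the phosphomevalonate kinase, by -1.08. Dhcr7, the reductase that yields cholesterol, differed by -0.95, and Ebp, the sterol isomerase, by -0.93. The smallest called falls were those of Hmgcs1, the synthase upstream of mevalonate, at -0.80, Nsdhl, a sterol decarboxylating dehydrogenase, at -0.79, Tm7sf2, a sterol reductase, at -0.68, and Mvk, the mevalonate kinase, at -0.48. Hmgcs1 had 4 further probe sets, which gave -1.41 to -1.87, more than the one used. Mvd, the mevalonate decarboxylase, was the sterol enzyme that was not called, with a difference of 0.01 ± 0.10 and an adjusted p of 0.931. Array values of Mvd ran from 1.19 to 2.15 in arrays labelled tumor and from 1.31 to 2.40 in arrays labelled spleen, so the ranges nearly coincide. After quantile normalization Mvd was called higher at 0.19 (adjusted p 0.0124), and after cyclic loess at 0.15 (adjusted p 0.0427).

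**Figure D1:**
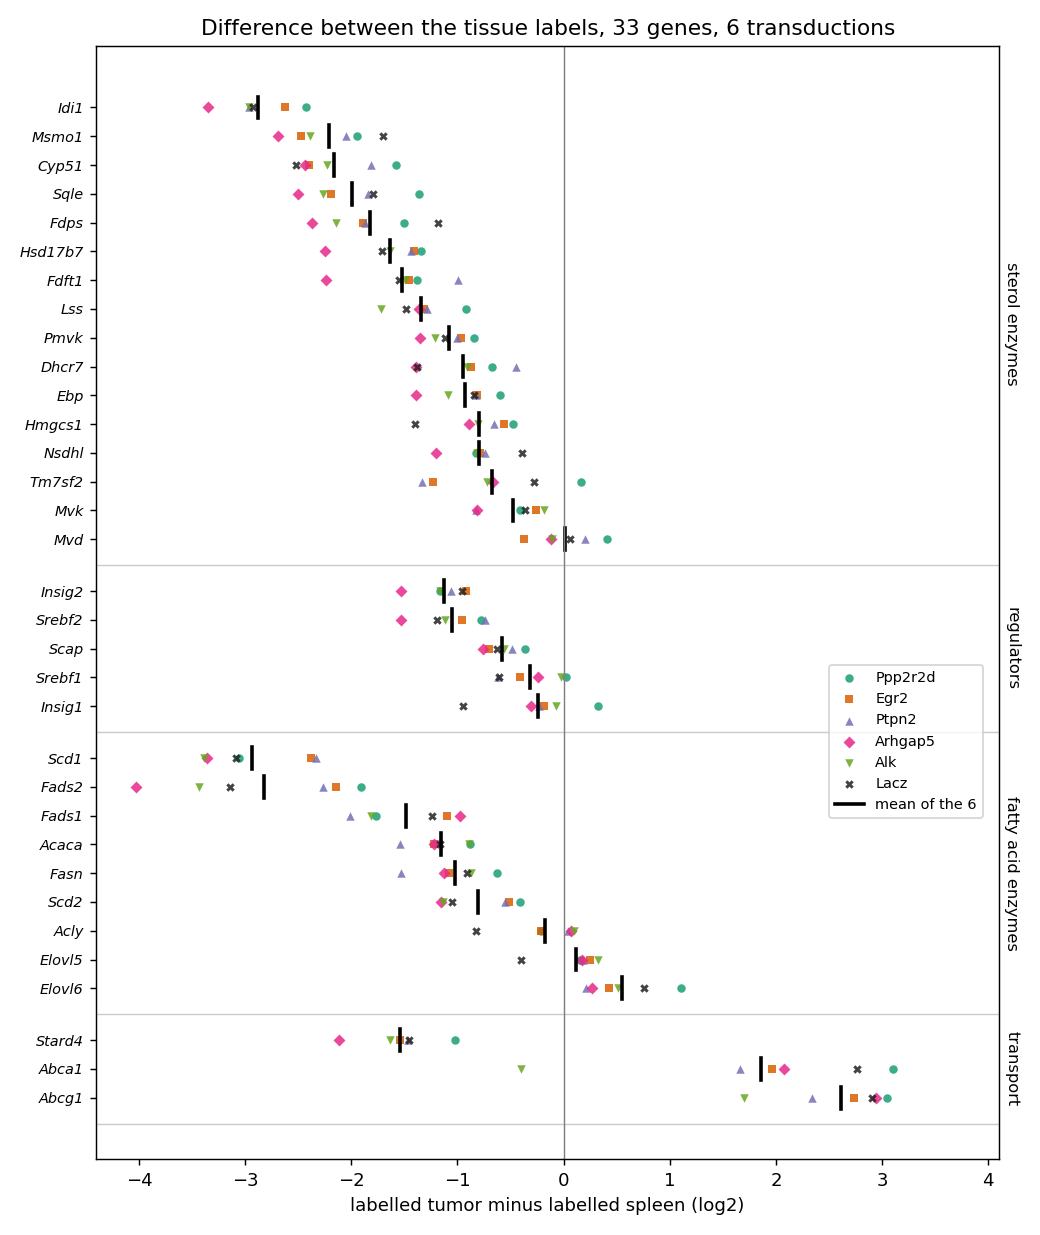
Difference between arrays labelled tumor and arrays labelled spleen (log2, horizontal axis) for 33 genes grouped by role, with 1 symbol per transduction (mean of 3 arrays minus mean of 3 arrays) and a black bar for the mean of the 6. Most sterol enzymes lie left of 0 in all 6 transductions, Mvd straddles 0, and Abcg1 lies right of 0 in all 6.

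Among the regulators, Insig2 and Srebf2 fell and Insig1 did not pass the test. Insig2, which holds the Scap-SREBP complex in the endoplasmic reticulum, read 1.82, 2.62 and 3.17 at the lowest, median and highest array labelled tumor, against 3.25, 3.72 and 4.16 in arrays labelled spleen. The labels did not overlap, and the difference was -1.13 ± 0.11 (adjusted p 2.05e-10). Srebf2, which encodes SREBP2, read 2.21, 3.44 and 4.15 in arrays labelled tumor, against 3.62, 4.50 and 5.05 in arrays labelled spleen. Its labels overlapped in part, with a difference of -1.05 ± 0.13 (adjusted p 1.59e-08). Scap, the carrier of the SREBPs, fell by 0.58, although a second, dimmer probe set was called higher at 0.45 and the mean of both was not called (-0.07, adjusted p 0.554). Srebf1 fell by 0.32 (adjusted p 0.0272). That call ended after quantile normalization (-0.05), cyclic loess (-0.08), without both Lacz groups (-0.26) and without Egr2 labelled spleen array 2 or Alk labelled tumor array 1 (adjusted p 0.0517 and 0.0545). Insig1, itself a target gene of SREBP, read 5.20, 5.78 and 6.38 in arrays labelled tumor, against 5.44, 5.99 and 6.82 in arrays labelled spleen. Its labels overlapped over most of their range, and the difference of -0.24 ± 0.11 had an adjusted p of 0.0601.

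Of the fatty acid enzymes, 6 of 9 were called lower and 1 higher. Scd1, a desaturase that makes monounsaturated chains, read -1.80, -1.0 and 1.31 in arrays labelled tumor, against 0.56, 2.34 and 3.57 in arrays labelled spleen. Only the upper end of the arrays labelled tumor met the lower end of the others, and the difference was -2.93 ± 0.21 (adjusted p 7.29e-14). Its other probe set lay near the bottom of the scale under both labels and gave 0.36, which was not called (adjusted p 0.103). Fads2, the first desaturase of polyunsaturated chains, read -2.71, -1.87 and -0.14 in arrays labelled tumor, against -0.77, 0.92 and 2.23 in arrays labelled spleen. The difference was -2.82 ± 0.16 (adjusted p 2.46e-16), and 2 other probe sets were called lower by 0.61 and 0.48. The lowest value on an array lay between -4.51 and -1.38, so low levels of Fads2 and Scd1 sit near the floor of some arrays.

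Fads1, the second desaturase of that path, read -0.92, 0.36 and 1.07 in arrays labelled tumor, against -0.29, 1.88 and 2.76 in arrays labelled spleen. The labels overlapped, with a difference of -1.48 ± 0.10 (adjusted p 5.2e-14), while a second probe set of Fads1 showed -0.00 (adjusted p 0.996). Acaca, the acetyl-CoA carboxylase, fell by 1.15, Fasn, the fatty acid synthase, by 1.02 and Scd2 by 0.80. A second probe set of Acaca was called higher at 0.81, and the mean of both was not called (-0.17, adjusted p 0.117). Acly, which cleaves citrate to acetyl-CoA, differed by -0.17 (adjusted p 0.109), and Elovl5, an elongase of polyunsaturated chains, by 0.11 (adjusted p 0.303). Of 5 other probe sets of Acly, 2 were called lower and 3 dimmer ones higher. Elovl6, the elongase of palmitate, was higher: it read 1.62, 2.34 and 2.69 in arrays labelled tumor, against 1.15, 1.81 and 2.28 in arrays labelled spleen. The difference was 0.55 ± 0.12 (adjusted p 0.00024) with overlapping labels, and of its other probe sets 1 was called higher at 0.86 and 1 showed 0.00 (adjusted p 0.979).

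Transport genes moved in opposite directions. Stard4, which carries cholesterol between membranes and is a target of SREBP2, read 2.71, 3.33 and 3.83 in arrays labelled tumor, against 4.32, 4.75 and 5.32 in arrays labelled spleen. The labels were fully separate, with a difference of -1.54 ± 0.11 (adjusted p 4.69e-14). Abcg1, which exports sterol to high density lipoprotein, read 4.73, 5.46 and 6.17 in arrays labelled tumor, against 1.90, 2.60 and 4.30 in arrays labelled spleen. It was also fully separate but higher under the tumor label, by 2.61 ± 0.14 (adjusted p 1.89e-16), and a second probe set gave 5.24. Abca1, which passes cholesterol to lipid-poor apolipoprotein, read 1.2, 2.19 and 3.19 in arrays labelled tumor, against -1.17, 0.10 and 3.49 in arrays labelled spleen. The ranges overlapped because 3 arrays labelled spleen were high, as described below, and the difference was 1.86 ± 0.16 (adjusted p 1.68e-11).

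**Figure D2:**
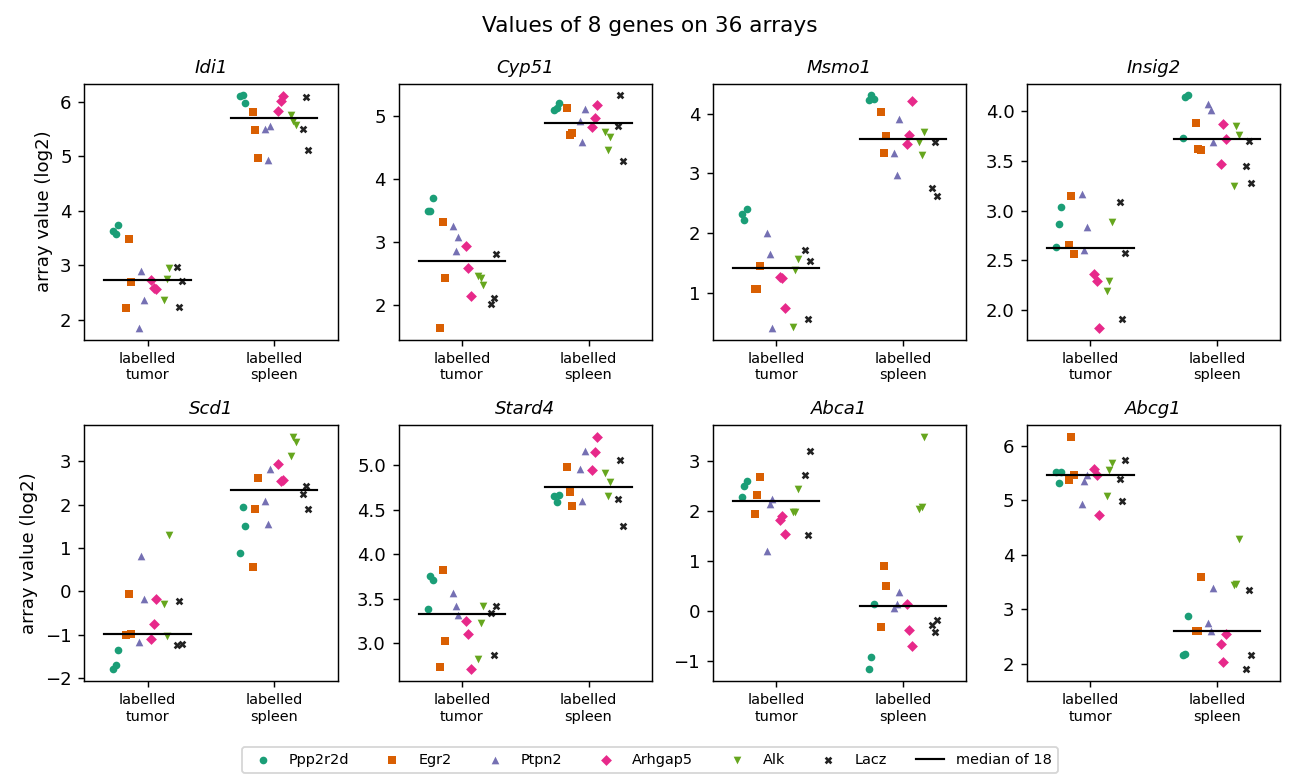
Array values (log2) of 8 genes, arrays labelled tumor left and arrays labelled spleen right in each panel, 18 each, with symbols by transduction and a line at the median. Idi1, Cyp51, Msmo1, Insig2 and Stard4 separate fully with the arrays labelled tumor below, Abcg1 separates fully with them above, and Abca1 overlaps through the 3 Alk arrays labelled spleen.

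Full separation of the labels was found for 8 genes with every array labelled tumor below, namely Idi1, Fdft1, Lss, Cyp51, Msmo1, Hsd17b7, Insig2 and Stard4. Of all genes 6.51% separated that way. The opposite was found for 1 gene, Abcg1, against 1.35% of all genes. After quantile normalization 6 genes lay fully below (7.68% of all genes), and after cyclic loess 7 did (8.21%). Of the variation between the 12 group means, the share between the labels was 94.6% for Stard4, 94.6% for Idi1 and 93.0% for Abcg1. It was 0.0655% for Mvd, 8.17% for Acly, 10.4% for Elovl5 and 27.7% for Insig1.

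The deposited scale itself differed between groups: the median difference of all genes was 0.13 as deposited, 0.00 after quantile normalization and -0.04 after cyclic loess. The median of the 33 genes was -0.72 after quantile normalization and -0.78 after cyclic loess. Of the 33, 28 differences were negative as deposited, 28 after quantile normalization and 27 after cyclic loess. Of 36 other probe sets that belong to called genes, 29 had the same sign, 26 of them called, and 7 had the opposite sign, 4 of them called. These 4 belong to Fdft1, Hsd17b7, Scap and Acaca. Leaving out any 1 of the 36 arrays left 28 to 31 genes called, and leaving out 4 arrays that stood apart left 31. These were Ptpn2 labelled tumor array 1 and the 3 arrays with the highest lowest value, namely Ptpn2 labelled tumor array 3, Egr2 labelled tumor array 2 and Lacz labelled spleen array 2.

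Other genes of sterol and fatty acid metabolism, a list of 34 of which 30 were measured, had 20 called lower and 6 higher, with a median of -0.70. This is the mean of the 6 transductions, where 33.1% of all genes were called lower and 37.6% higher. The largest differences were those of Mylip at 3.11, Elovl7 at 2.58, Tmem97 at -2.46, Acss2 at 2.35, Erlin1 at -1.69 and Hacd2 at -1.54. Mylip is a ubiquitin ligase gene that LXR activates, like Abca1 and Abcg1. Its array values ran from 2.11 to 3.56 in arrays labelled tumor and from -1.06 to 0.95 in arrays labelled spleen, with no overlap. Acss2, which makes acetyl-CoA from acetate, is known as a target of SREBP, and it was higher where most sterol enzymes were lower. Its values ran from 3.76 to 4.98 in arrays labelled tumor and from 1.38 to 2.68 in arrays labelled spleen. Lpin1, another gene known to be driven by SREBP, was also higher, by 1.46. Nr1h3, which encodes an LXR, differed by 0.05 and was not called (adjusted p 0.701).

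The difference between the labels was found within each of the 6 transductions. With Ppp2r2d 19 of the 33 genes were called, 16 of them lower, where 22.6% of all genes were called and 14.5% lower. With Egr2 22 were called, 20 of them lower (26.4% and 15.9% of all genes). With Ptpn2 24 were called, 22 of them lower (49.2% and 25.1%). With Arhgap5 26 were called, 24 of them lower (32.3% and 21.6%), and with Alk 24, 23 of them lower (53.2% and 20%). With Lacz 25 were called, 23 of them lower (25.2% and 18.9%). Among the genes called lower in every transduction were Idi1, Fdps, Fdft1, Sqle, Lss, Cyp51, Msmo1 and Stard4, and Abcg1 was called higher in every one. Called in no single transduction were Mvd, Srebf1 and Elovl5. The share of all genes with such calls was not counted. The difference of Idi1 ranged from -3.35 with Arhgap5 to -2.42 with Ppp2r2d, and that of Sqle from -2.5 with Arhgap5 to -1.36 with Ppp2r2d. The widest range among enzymes was that of Fads2, from -4.03 with Arhgap5 to -1.91 with Ppp2r2d. The Lacz count was 19 without Lacz array 2 of either label, 28 without Lacz labelled spleen array 3, and 12 with only the 6 Lacz arrays in the fit.

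Whether the tissue difference varied among the transductions was tested by an interaction term with 5 degrees of freedom. It was called for 2 of the 33 genes, Abca1 and Fads2, against 9.1% of all genes. It was called for 4 after cyclic loess (7.74% of all genes), for 4 without the 4 arrays that stood apart (27.5%), for 14 with array weights (43.9%) and for 1 with the mean of probe sets (10.7%). Abca1 read 1.98, 1.98 and 2.43 in the Alk arrays labelled tumor, against 2.03, 2.07 and 3.49 in the Alk arrays labelled spleen. These values overlap, whereas in the other 5 transductions the mean was 1.75 to 2.47 in arrays labelled tumor and -0.65 to 0.35 in arrays labelled spleen. The difference of Abca1 was -0.40 with Alk and between 1.66 and 3.11 with the other transductions (interaction adjusted p 0.0024). Both dimmer probe sets of Abca1 gave no such call (adjusted p 0.162 and 0.764), nor did the mean of the probe sets (0.104). For Fads2 the interaction had an adjusted p of 0.0379. That call ended after cyclic loess (adjusted p 0.0986), with each of the other probe sets (0.0899 and 0.106) and without any 1 of 17 arrays (0.0512 to 0.0706).

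In arrays labelled tumor, most genes of sterol synthesis had their highest mean with the Ppp2r2d hairpin as deposited, though fewer did after rescaling (counts below), but against Lacz alone, with all arrays on the deposited scale, only Cyp51 was called. The 5 hairpin comparisons under each label share the same 3 Lacz arrays. Cyp51 read 3.50, 3.50 and 3.71 in Ppp2r2d arrays, against 2.01, 2.11 and 2.80 in Lacz arrays. The 3 Ppp2r2d arrays all lay above the 3 Lacz arrays. Cyp51 was the 1 gene of 33 called, at 1.26 ± 0.31 with an adjusted p of 0.034, where 0.995% of all genes were called. Leaving out Lacz array 1 or 2 or any of the 3 Ppp2r2d arrays ended that call (adjusted p 0.0571 to 0.223), and with only the 6 arrays compared in the fit it was 0.144. A second probe set of Cyp51 gave 1.79 (adjusted p 0.0169) and the dimmest gave 0.43 (adjusted p 0.622).

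Other settings called more genes in this comparison. Cyp51 and Idi1 were called after quantile normalization and after cyclic loess, where 2.17% and 2.39% of all genes were. Without the 4 arrays that stood apart 5 sterol enzymes were called, Cyp51, Idi1, Msmo1, Sqle and Tm7sf2, where 5.03% of all genes were. With array weights 9 genes were called, 7 of them sterol enzymes, where 17.1% of all genes were.

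Idi1 read 3.63, 3.57 and 3.74 in Ppp2r2d arrays, against 2.97, 2.23 and 2.72 in Lacz arrays, a difference of 1.01 ± 0.30 (adjusted p 0.0982). Msmo1 read 2.33, 2.23 and 2.40 in Ppp2r2d arrays, against 1.72, 0.56 and 1.54 in Lacz arrays (1.04 ± 0.36, adjusted p 0.166). Sqle read 2.13, 2.30 and 2.35 in Ppp2r2d arrays, against 1.63, 0.60 and 1.55 in Lacz arrays (1.0 ± 0.35, adjusted p 0.177). For all of these the Ppp2r2d arrays lay above the Lacz arrays, yet the differences did not pass the test. Of 16 sterol enzymes 15 had a positive difference and 11 had all 3 Ppp2r2d arrays above all 3 Lacz arrays, where 18.7% of all genes did. The median difference was 0.56 for the sterol enzymes and 0.09 for all genes.

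Set against the mean of the other 5 transductions labelled tumor, a contrast chosen after these values were seen, Ppp2r2d had 8 genes called higher and 1 lower. Of all genes 19.5% were called in that contrast, 6.42% higher and 13.1% lower. The 8 were Idi1 at 1.02, Fdps at 0.82, Sqle at 0.95, Cyp51 at 1.01, Tm7sf2 at 0.81, Msmo1 at 1.11, Hsd17b7 at 0.74 and Fads1 at 0.69, with adjusted p between 0.00484 and 0.0234. Scd1 was the gene called lower, at -1.13 (adjusted p 0.0416). Without Ppp2r2d array 3 none of the 33 was called, and without array 1 or array 2 there were 3, where 1.49% to 2.25% of all genes were called higher. Leaving out any 1 array of the other groups left 8 to 12 called. After quantile normalization 5 were called higher (4.42% of all genes), and after cyclic loess 4 (4.25%), with Cyp51, Idi1, Msmo1 and Hmgcs1 among both.

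By group means, Ppp2r2d was the highest of the 6 labelled tumor groups for 14 of 16 sterol enzymes and for 22 of the 33 genes, as it was for 29.4% of all genes. Ppp2r2d was also the lowest of these groups for 36.3% of all genes, and for 1 of the 33. After quantile normalization it was the highest for 7 of 16 and 12 of 33 (22.6% of all genes), and after cyclic loess for 8 of 16 and 11 of 33 (22.3%). Arhgap5 was the lowest for 18 of 33 genes, against 19.8% of all genes, but for 8 after quantile normalization (14.8%) and for 7 after cyclic loess (16.2%). The mean of 15 genes of dividing cells was also lowest there, at 0.82 to 1.38 in the Arhgap5 arrays, against 1.80 to 2.88 in the Lacz arrays. Of the 15, 7 were called lower with Arhgap5 than with Lacz, where 0.368% of all genes were called. The part of these genes in the result was not tested. An F test over the 6 transductions labelled tumor called 3 of the 33 genes, against 11% of all genes: Idi1 (adjusted p 0.0456), Cyp51 (0.0265) and Fads1 (0.00146). Idi1 lost that call without any 1 of 10 arrays, and Cyp51 without any of the 3 Ppp2r2d arrays. That F test called 7 genes after quantile normalization (13.7% of all genes), 5 after cyclic loess (11.5%), 11 without the 4 arrays that stood apart (37.4%), 23 with array weights (62.4%) and 0 with only the arrays labelled tumor in the fit (0.94%).

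The Arhgap5 hairpin went with low Fads1 under both labels. In arrays labelled tumor Fads1 read -0.49, -0.92 and -0.74 with Arhgap5, against 0.87, 0.20 and 0.53 with Lacz. The Arhgap5 arrays all lay below the Lacz arrays, and the difference was -1.25 ± 0.25 (adjusted p 0.012). It was the 1 gene of 33 called, against 0.368% of all genes. Leaving out Lacz array 1 or 3 or Arhgap5 array 2 or 3 ended the call (adjusted p up to 0.159). In arrays labelled spleen Fads1 read 0.51, 0.56 and -0.29 with Arhgap5, against 1.99, 1.92 and 1.41 with Lacz. Again the arrays did not overlap, with a difference of -1.51 ± 0.25 (adjusted p 0.000447), and no single array ended that call. The second probe set of Fads1 showed 0.23 in arrays labelled tumor and -0.29 in arrays labelled spleen, neither called, and the mean of both probe sets in arrays labelled tumor gave -0.51 (adjusted p 0.93).

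With the remaining hairpins no gene of the set was called in arrays labelled tumor on the deposited scale with all arrays. Egr2 called 0 of 33, where 0.0275% of all genes were called. The smallest p was that of Fads2, at 1.26 (adjusted p 0.771). Ptpn2 called 0, where 0.764% of all genes were called, and the smallest p was that of Cyp51 at 0.76 (adjusted p 0.194). Cyp51 was called with Ptpn2 after quantile normalization and after cyclic loess, where 2.9% and 2.37% of all genes were, and 2 genes were called without Ptpn2 array 2. Alk called 0, where 0.0055% of all genes were called, and the smallest p was that of Acly at 0.50 (adjusted p 0.183). With array weights Alk had 6 genes called (43% of all genes), and without the 4 arrays that stood apart it had 1, Acly (26.8%).

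**Figure D3:**
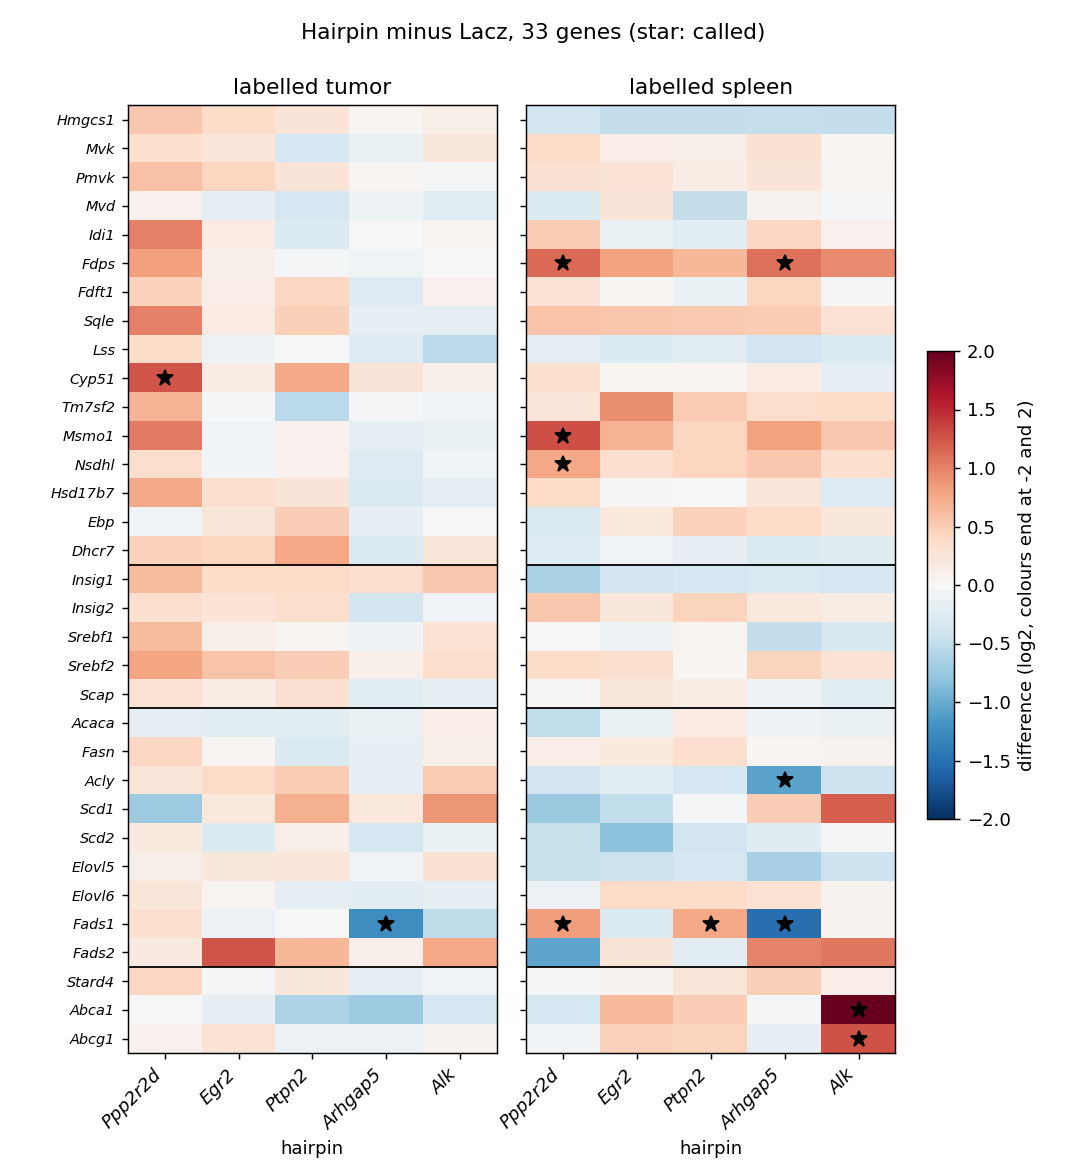
Difference of each of 5 hairpins from Lacz (log2, colour) for 33 genes, arrays labelled tumor left and arrays labelled spleen right, with a star where the gene was called. Red cells gather in the sterol enzymes of the Ppp2r2d column labelled tumor, where Cyp51 has the star, and Fads1 is blue with Arhgap5 under both labels.

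In arrays labelled spleen the Lacz arrays stood apart from the others. Their best correlation with any other array was 0.954 to 0.971, against 0.982 to 0.991 for the other 15 arrays labelled spleen, and their Gapdh excess at the 3' end was 0.83 to 1.39, against 0.25 to 0.83. Each comparison below rests on those 3 arrays. The median difference of all genes was -0.24 with Ppp2r2d, -0.18 with Egr2, -0.15 with Ptpn2, -0.22 with Arhgap5 and -0.21 with Alk. After quantile normalization these medians lay between -0.03 and -0.00.

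Ppp2r2d had 4 genes called higher in arrays labelled spleen, where 12.8% of all genes were called and 6.15% called higher. Msmo1 read 4.23, 4.31 and 4.25 in Ppp2r2d arrays, against 2.75, 3.53 and 2.63 in Lacz arrays (1.29 ± 0.36, adjusted p 0.0172). Fdps read 4.59, 4.41 and 4.47 in Ppp2r2d arrays, against 2.70, 3.89 and 3.47 in Lacz arrays (1.14 ± 0.32, adjusted p 0.0182). Nsdhl differed by 0.78 (adjusted p 0.0294) and Fads1 by 0.84 (adjusted p 0.026). The Ppp2r2d arrays lay above the Lacz arrays for all 4 genes, and a second probe set of Fdps gave -0.69. Against the mean of the other 5 transductions Fads1 kept its call (1.03, adjusted p 0.000858), and Msmo1 (0.79), Fdps (0.44) and Nsdhl (0.45) had adjusted p of 0.119, 0.511 and 0.234. Each of the 4 calls ended without 3 or 4 single arrays, among them Ppp2r2d arrays 2 and 3 in every case, and 0 of 33 were called without Ppp2r2d array 2.

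Arhgap5 had 3 genes called in arrays labelled spleen (8.89% of all genes): Fads1 as given above, Acly and Fdps. Acly read 5.65, 5.89 and 5.89 in Arhgap5 arrays, against 7.0, 7.29 and 6.34 in Lacz arrays. The arrays did not overlap, and the difference was -1.06 ± 0.24 (adjusted p 0.00674), which leaving out single arrays did not end. Against the mean of the other 5 transductions it was -0.79 (adjusted p 0.0217), and with only the 6 arrays compared in the fit its adjusted p was 0.102. Of 5 other probe sets of Acly, 2 were called, at -1.01 and -1.02, 2 gave -1.11 and -1.03 without a call, and 1 gave 0.03. Fdps differed by 1.09 (adjusted p 0.0303), ended by leaving out Lacz array 1 or Arhgap5 array 2 or 3 (adjusted p up to 0.118). A second probe set of Fdps, near the floor of some arrays, gave -1.03. Against the mean of the other 5 transductions Fdps differed by 0.39 (adjusted p 0.86). Ptpn2 had 1 gene called, Fads1 at 0.78 (adjusted p 0.0456), against 9.58% of all genes, and 5 of the 6 single arrays ended it (adjusted p 0.0553 to 0.183). With the replicate number as a block its adjusted p was 0.0564, and after quantile normalization the difference was 0.39 (adjusted p 0.249). Egr2 called 0 of 33, where 3.23% of all genes were called, and the smallest p was that of Tm7sf2 at 0.92 (adjusted p 0.0724).

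Alk had Abca1 and Abcg1 called higher in arrays labelled spleen, where 7.4% of all genes were called. Abca1 read 2.03, 2.07 and 3.49 in Alk arrays, against -0.29, -0.42 and -0.18 in Lacz arrays. The groups lie far apart, with a difference of 2.83 ± 0.40 (adjusted p 9.71e-05). Abcg1 read 3.45, 3.47 and 4.30 in Alk arrays, against 1.90, 3.35 and 2.15 in Lacz arrays. The Alk arrays lay just above the highest Lacz array, with a difference of 1.27 ± 0.35 (adjusted p 0.027) that ended without Lacz array 1 or 3 or Alk array 3 (adjusted p up to 0.158). Of the other probe sets, those of Abca1 gave 0.94 and 0.15 and that of Abcg1 0.04, none called. The same Alk arrays had the highest macrophage marker means of all groups, 4.31 to 4.95, against 2.49 to 3.07 in Lacz arrays, and 9 of 12 macrophage and 7 of 10 pigment cell markers were called higher. The part of those markers in the result was not tested.

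Across all 6 transductions labelled spleen, an F test called 5 of the 33 genes, against 12.2% of all genes. They were Fads1 (adjusted p 7.16e-07), Abca1 (1.43e-05), Fads2 (0.0016), Abcg1 (0.034) and Acly (0.0368). No sterol enzyme was among them on the deposited scale with all arrays. After quantile normalization 10 genes were called and after cyclic loess 12, where 16.7% and 20% of all genes were, and the sterol enzymes Ebp, Fdps, Idi1, Mvd and Nsdhl were among both. Without the 4 arrays that stood apart 12 were called, 6 of them sterol enzymes (19.6% of all genes), and with array weights 16, 8 of them sterol enzymes (32.6%). The call of Acly ended without any 1 of 10 arrays (adjusted p up to 0.177) and that of Abcg1 without any 1 of 7 (up to 0.212). The desaturase genes Fads1 and Fads2, both on chromosome 19, did not share an order. Fads1 had its highest mean with Ppp2r2d, at 2.61 ± 0.06 (SD), and its lowest with Arhgap5, at 0.26 ± 0.48 (n = 3 each). Fads2 had its lowest mean with Ppp2r2d, at -0.21, and high means with Arhgap5 at 1.83 and Alk at 1.90. Fads2 in Ppp2r2d arrays read -0.34, -0.77 and 0.47, and 2 of the 15 arrays of the other groups lay below the highest of these. In the order of the Fads1 means, Ppp2r2d and Ptpn2 at 2.61 and 2.55 had overlapping arrays, and the Lacz arrays, with a mean of 1.77, overlapped both those of Alk at 1.84 and those of Egr2 at 1.51.

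**Figure D4:**
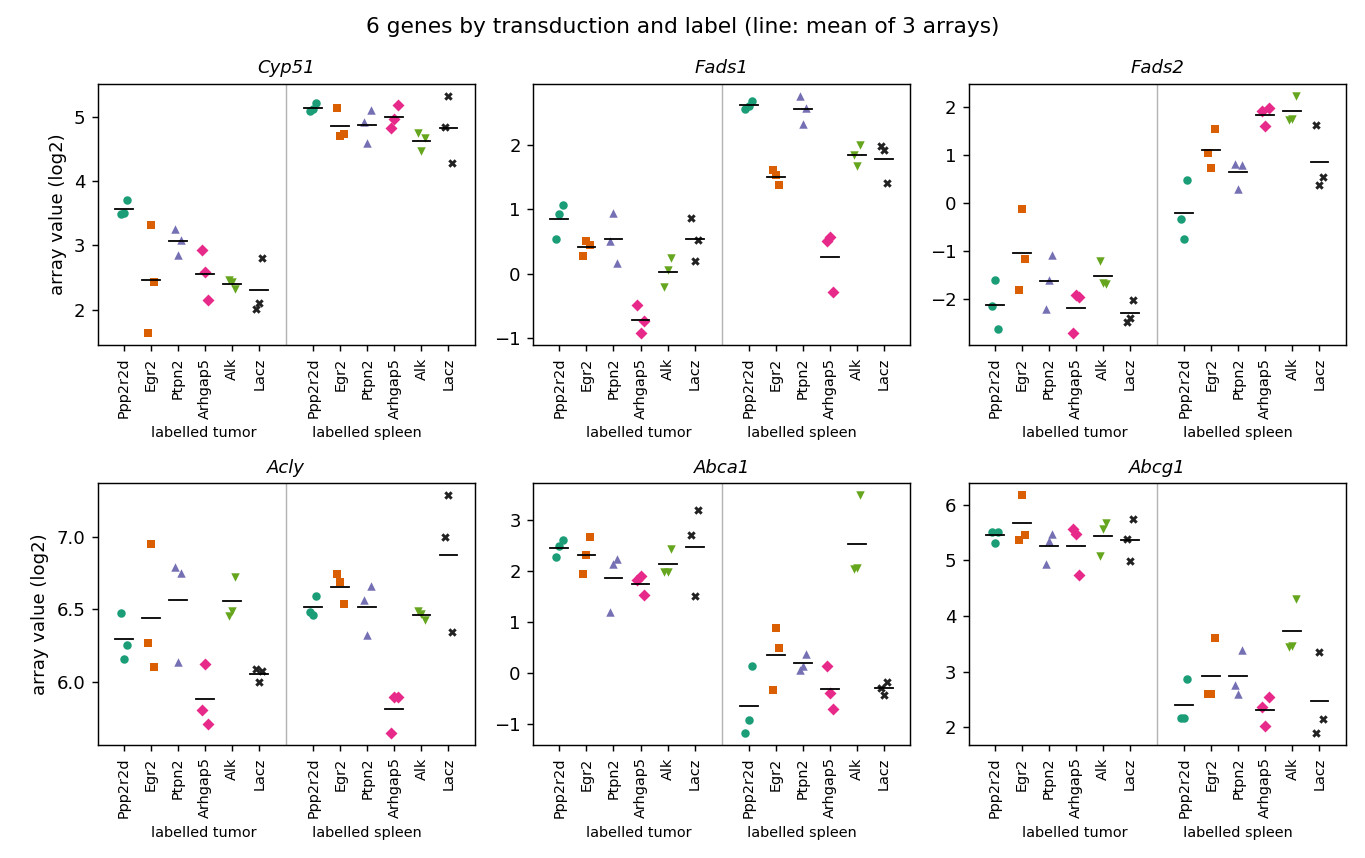
Array values (log2) of 6 genes in the 12 groups, hairpins before Lacz, with a line at each mean of 3 arrays. Fads1 is lowest with Arhgap5 under both labels, Fads2 labelled spleen is lowest with Ppp2r2d, and Abca1 labelled spleen is high in the 3 Alk arrays.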

How the data were processed

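The authors deposited log2 expression values for 36 Affymetrix whole-genome mouse arrays, made by RMA per the submitters' processing notes; how the values were centred is not given in the sources used here. Of 45101 probe sets, 34945 had 1 gene symbol, 932 several and 9160 none, and 64 were controls. Each gene was read from its probe set with the highest mean. Levels of different probe sets were not compared, and arrays carry no counts, so their number limits the precision.

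A mean was fitted for each of the 12 groups with limma 3.58.1 in R 4.3.3, with eBayes and Benjamini-Hochberg adjustment over 18193 genes, in 20 comparisons. A gene was called at an adjusted p under 0.05. All members of the set are accounted for, and other genes were named from fixed lists by size of difference. Lpin1 and Nr1h3 were named outside that rule, for their link to SREBP and LXR. The members and lists were chosen with earlier results of these data known. Alternatives were probe set choice, a filter on low values, quantile normalization, cyclic loess, fewer arrays, array weights, the replicate number as a block and each array left out. Leaving out 4 arrays that stood apart, and the contrast with the other 5 transductions, were added after seeing the data. In their deviations from group means, same-numbered arrays correlated at -0.24 to 0.24 between the labels (4 of 18 pairs over 0.1), at -0.59 to 0.52 between hairpins and Lacz labelled tumor (6 of 15) and at -0.27 to 0.17 labelled spleen (3 of 15), so the numbers were not taken to pair arrays.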

Additional observations from a re-analysis of the deposited data

Results flagged for a closer look

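The difference between arrays labelled tumor and arrays labelled spleen was not the same in the 6 transductions for 2 of the 33 genes. The same test called 9.1% of all genes. For Abca1 the interaction test had an adjusted p of 0.0024, with differences of -0.40 for Alk and 1.66 to 3.11 for the other transductions. Neither dimmer probe set of Abca1 gave that call. For Fads2 the interaction test had an adjusted p of 0.0379, with differences from -4.03 for Arhgap5 to -1.91 for Ppp2r2d. The Fads2 call ended without any 1 of 17 arrays (adjusted p 0.0512 to 0.0706).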

How the results depend on the processing

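Of the results for single genes in the mean difference between the labels, 273 kept direction and call under an alternative other than leaving out 1 array, 11 gained a call, 8 lost it and 15 reversed; in the other comparisons 165 kept both, 63 lost the call and 4 reversed. The causes were not tested. Reversed values were, for Mvd, -0.039 with the mean of probe sets, -0.033 with array weights, -0.088 with another probe set and -0.030 to 0.051 on leaving out 1 array, below 0 without any 1 of 9 arrays; for Acly 0.028 with the mean of probe sets, 0.042 after cyclic loess and 0.57, 0.55 and 0.55 with other probe sets. Other probe sets also gave 0.47 for Fdps, 0.38 and 0.20 for Fdft1, 0.87 for Hsd17b7, 0.45 for Scap, 0.81 for Acaca and 0.36 for Scd1. In hairpin comparisons they gave 0.23 for Fads1 (Arhgap5, labelled tumor), -0.69 and -1.03 for Fdps (Ppp2r2d and Arhgap5, labelled spleen) and 0.028 for Acly (Arhgap5, labelled spleen). The other probe set of Fdps lay near the floor of some arrays.

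Counts of genes called that moved by over 1.5 times were as follows, each with the share of all genes called in the same fit. With the mean of probe sets Alk labelled spleen had 1 (6.15%), Arhgap5 labelled tumor 0 (0.297%), Ptpn2 labelled spleen 0 (9.73%), the F test labelled spleen 3 (11.3%) and the interaction 1 (10.7%). After quantile normalization Arhgap5 labelled spleen had 5 (7.9%), Ppp2r2d labelled tumor 2 (2.17%), Ptpn2 labelled tumor 1 (2.9%), and the F tests 7 labelled tumor (13.7%) and 10 labelled spleen (16.7%). After cyclic loess Ppp2r2d labelled tumor had 2 (2.39%), Ptpn2 labelled tumor 1 (2.37%), the interaction 4 (7.74%), and the F tests 5 labelled tumor (11.5%) and 12 labelled spleen (20%). With only the groups compared in the fit Lacz had 12 between the labels (10.2%), Alk labelled spleen 1 (4.33%) and Arhgap5 labelled spleen 1 (5.5%). In that setting 0 were called for Ppp2r2d labelled tumor (0.11%) and labelled spleen (6.16%), Ptpn2 labelled spleen (5.47%), Arhgap5 labelled tumor (0.077%) and the F test labelled tumor (0.94%). With array weights Ppp2r2d labelled tumor had 9 (17.1%), Alk labelled tumor 6 (43%), Arhgap5 labelled tumor 3 (6.33%), Ptpn2 labelled spleen 0 (9.41%), the interaction 14 (43.9%), and the F tests 23 labelled tumor (62.4%) and 16 labelled spleen (32.6%). Without both Lacz groups the F test labelled tumor had 7 (27.1%). Without the 4 arrays that stood apart Ppp2r2d labelled tumor had 5 (5.03%), Alk labelled tumor 1 (26.8%), Arhgap5 labelled spleen 5 (12.2%), Egr2 labelled spleen 2 (6.94%), Ptpn2 labelled spleen 2 (14%), the interaction 4 (27.5%), and the F tests 11 labelled tumor (37.4%) and 12 labelled spleen (19.6%). Against the other 5 transductions Ppp2r2d labelled tumor had 9 (19.5%). With the replicate number as a block Ptpn2 labelled spleen had 0 (8.63%) and Idi1 lost its call in the F test labelled tumor (adjusted p 0.0583).

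Leaving out 1 array at a time gave, between the labels, 28 to 31 genes for the mean, 19 to 28 for Lacz, 16 to 18 for Ppp2r2d, 17 to 25 for Egr2, 21 to 24 for Ptpn2, 24 to 25 for Arhgap5, 18 to 25 for Alk and 1 to 4 for the interaction. Labelled tumor it gave 0 to 2 for Ppp2r2d, 0 to 2 for Ptpn2, 0 to 1 for Arhgap5, 0 for Egr2 and Alk, and 1 to 8 for the F test. Labelled spleen it gave 0 to 4 for Ppp2r2d, 0 to 1 for Ptpn2, 2 to 4 for Arhgap5, 1 to 3 for Alk, 0 for Egr2 and 3 to 6 for the F test.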
